A study of Homo sapiens with 2 samples.

Results

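Collagen and laminin genes were read from 1 Affymetrix expression array of CL1-0 cells with an FDFT1 vector and 1 of CL1-0 cells with a control vector. The genes were taken by symbol alone, as every collagen chain gene and every gene whose symbol starts as a laminin alpha, beta or gamma chain. No signal or difference was used to pick among them, but the choice of these families was made with earlier results of these data known. The genes number 56 of the 19775 that the array's annotation names singly, and 138 probe sets stand for them. Of these, 43 encode collagen chains, 10 encode laminin chains, and 3 (LAMA4-AS1, LAMA5-AS1 and LAMB2P1) are antisense genes or a pseudogene. Chain genes without a probe set of their own in the annotation used were not analysed here. The CL1-0 line comes from a human lung adenocarcinoma and is labelled type II alveolar, and FDFT1 encodes squalene synthase, which commits the mevalonate pathway to sterols. Both samples were stably transduced, puromycin-selected cells kept at 37 °C in 5% CO2, and 6 µg of total RNA was labelled for each array. Whether they were clones or pools is not given in the sources used. With 1 array per group, all differences below compare these 2 arrays and carry no p-value.

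Laminins are cross-shaped proteins built from 1 alpha, 1 beta and 1 gamma chain, and they polymerise on the cell surface into the first layer of a basement membrane. Collagen IV forms the second network of that sheet, and nidogen and heparan sulphate proteoglycans tie both together. Collagens share a right-handed triple helix of repeating glycine triplets. The fibrillar types form the banded fibres of connective tissue, collagen VI forms beaded filaments, and fibril-associated types decorate the fibres. In the alveolus the epithelium and the capillary endothelium share a basement membrane of laminin and collagen IV.

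The starts of the genes whose values matter most here are shown first, as reference sequence from RefSeq (GRCh38.p14). COL4A1 and COL4A2 lie head to head and share 1 stretch of 126 bases between their starts (chr13:110307158-110307283, plus strand), so a single sequence serves both. For LAMA5 (chr20:62367313-62367562, minus strand), LAMB2 (chr3:49133051-49133300, minus strand), LAMB1 (chr7:108003162-108003411, minus strand) and LAMC1 (chr1:183023170-183023419, plus strand), the 250 bases before the annotated start are given, since the first pair had the lowest differences among the laminin genes and the second pair the brightest signals. Capitals mark letters of a GC box (GGGCGG or CCGCCC) or a CCAAT box (CCAAT or ATTGG).
COL4A1 to COL4A2: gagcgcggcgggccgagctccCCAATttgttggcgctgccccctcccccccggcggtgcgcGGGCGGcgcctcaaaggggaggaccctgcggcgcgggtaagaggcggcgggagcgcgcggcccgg
LAMA5: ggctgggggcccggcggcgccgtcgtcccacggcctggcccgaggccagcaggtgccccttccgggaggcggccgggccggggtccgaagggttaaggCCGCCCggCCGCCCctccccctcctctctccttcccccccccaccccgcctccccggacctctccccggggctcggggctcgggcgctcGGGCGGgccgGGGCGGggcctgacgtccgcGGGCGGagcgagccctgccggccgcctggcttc
LAMB2: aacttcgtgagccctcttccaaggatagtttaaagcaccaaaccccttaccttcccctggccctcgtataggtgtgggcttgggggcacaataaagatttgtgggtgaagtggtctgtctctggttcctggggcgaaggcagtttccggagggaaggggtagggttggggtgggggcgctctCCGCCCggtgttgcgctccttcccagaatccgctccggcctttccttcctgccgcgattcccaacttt
LAMB1: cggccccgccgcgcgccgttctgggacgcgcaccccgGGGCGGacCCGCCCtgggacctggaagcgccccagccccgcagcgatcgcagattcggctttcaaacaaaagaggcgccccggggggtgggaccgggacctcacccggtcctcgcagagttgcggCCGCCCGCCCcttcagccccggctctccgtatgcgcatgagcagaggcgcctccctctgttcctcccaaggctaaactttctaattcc
LAMC1: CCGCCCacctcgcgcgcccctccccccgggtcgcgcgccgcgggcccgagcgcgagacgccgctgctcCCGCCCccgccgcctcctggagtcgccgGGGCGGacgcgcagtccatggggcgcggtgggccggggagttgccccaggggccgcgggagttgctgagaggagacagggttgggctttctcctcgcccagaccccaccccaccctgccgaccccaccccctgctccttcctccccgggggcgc

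By letters alone, the shared collagen IV stretch holds 1 GC box and 1 CCAAT box and is 80.2% G and C. In windows of the same length before 27305 annotated starts, 34.6% hold a GC box and 21.9% a CCAAT box. The laminin windows hold 5 GC boxes in LAMA5, 1 in LAMB2, 4 in LAMB1 and 3 in LAMC1, counting overlapping matches on both strands, against at least 1 in 42.3% of all windows of 250 bases. None of these 4 windows has a CCAAT box, which 33.04% of all such windows hold, and no TATAAA or TTTATA is found in any of the sequences shown (11.1% of windows of 250 bases and 6.23% of windows of 126 bases hold one). G and C make up 82.8% of the LAMA5 window and 58.4% of the LAMB2 window, so the laminin genes with the lowest differences lie at opposite ends of this range. A match is a run of letters and not a shown binding site.

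Signals were MAS5 intensities on a linear scale. A probe set was measured if it reached a floor, the median of all signals (12.2), on at least 1 array, and the brightest such probe set stood for the gene. Values below the floor were raised to it, which makes any difference from them a lower bound. Differences are log2, FDFT1 minus control, after the arrays were centred on each other by a shift of -0.11. The error given is how far a gene's probe sets scatter at that signal. It was 0.49 on the log2 scale for mean log2 signals under 5, then 0.30 up to 7, 0.22 up to 9, 0.16 up to 11 and 0.097 for still brighter ones. This error includes none of the variation between cultures. Since RNA came from whole cultures, fewer cells with a transcript and less of it per cell cannot be told apart. Signals of different probe sets are not comparable as amounts of mRNA, and the 75th percentile of all signals (99.4) is used only to say where a probe set stood on its array.

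A limited set of matrix chains passed the floor in CL1-0, which does not by itself show that a chain was expressed. Of the 53 chain genes, 25 (47.2%) were measured, against 12968 (65.6%) of all genes. The laminins accounted for 6 of 10 and the collagens for 19 of 43. Signals above the 75th percentile on at least 1 array came from 10 chain genes: LAMC1, LAMB1, LAMC3, LAMB2, LAMA5, COL4A1, COL4A2, COL5A2, COL6A1 and COL11A1. That is 5 of the 10 laminin genes and 5 of the 43 collagen genes (11.6%), against 40.8% of all genes. The other 28 chain genes, with 74 probe sets, stayed under the floor on both arrays, the highest signal among them being 11.5 for COL4A4 on the FDFT1 array.

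**Figure D1:**
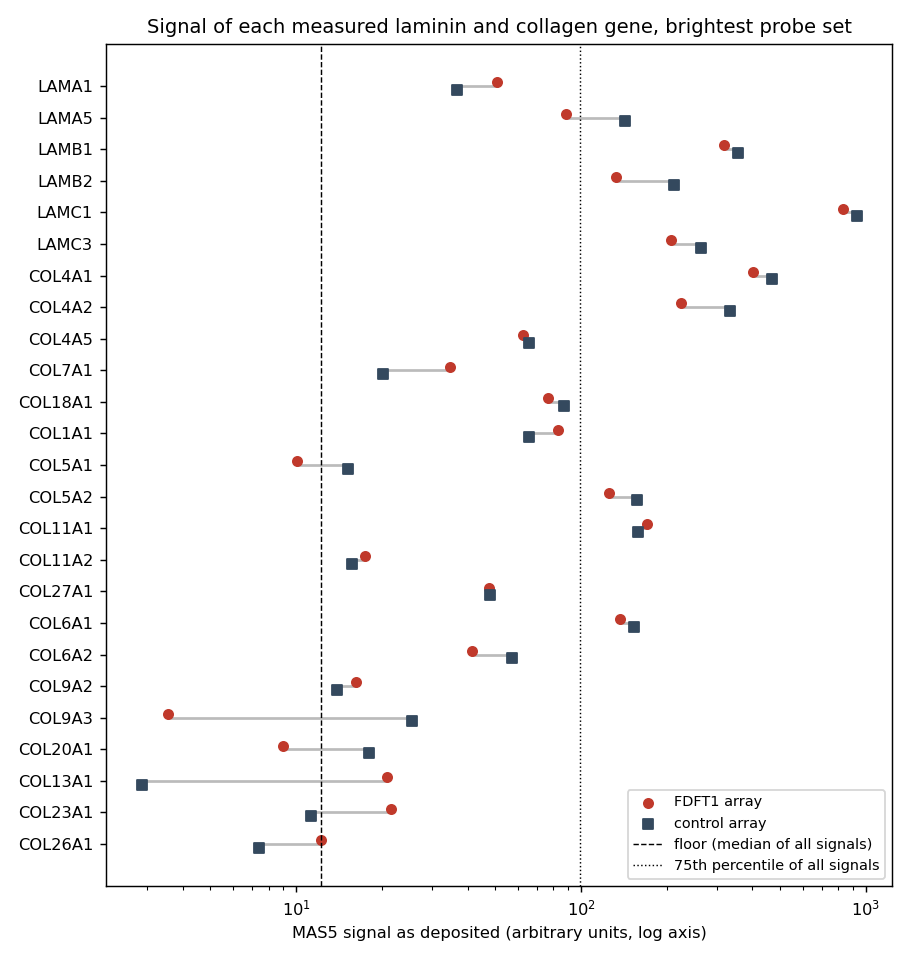
MAS5 signal as deposited (log axis) of the brightest probe set of each of the 25 measured laminin and collagen genes, with the FDFT1 array as red circles and the control array as dark squares. LAMC1 was the brightest at 831 on the FDFT1 array and 929 on the control array, and LAMA5 lies on opposite sides of the dotted line of the 75th percentile on the arrays.

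Few of these genes differed much. With values held at the floor, none of the 25 was at least 2-fold higher with FDFT1 and 1 was at least 2-fold lower, where 0.571% and 0.578% of all measured genes passed the same sizes. COL13A1 and COL23A1 have only a lower bound, and without a floor their values were 2.97 and 1.03. At 1.5-fold, 3 were higher and 1 was lower, against 3.91% and 3.28% of all genes. In all, 14 of the 25 lay below 0, with a median of -0.06, against 50.2% below 0 and a median of -0.0013 over all measured genes. The difference exceeded 1 probe-set error in 13 genes (52.0%), against 33.1% of all measured genes, and 2 errors in 3 genes (12%), against 7.25%. These 3 were LAMB2, COL4A2 and COL9A3. Of the 25, 6 passed the floor through 1 array alone, COL9A3 among them, against 1378 of all 12968 measured genes. The direction of such genes came with the floor. How far they account for the larger shares past 1 and 2 errors was not tested, so these shares are only a description.

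**Figure D2:**
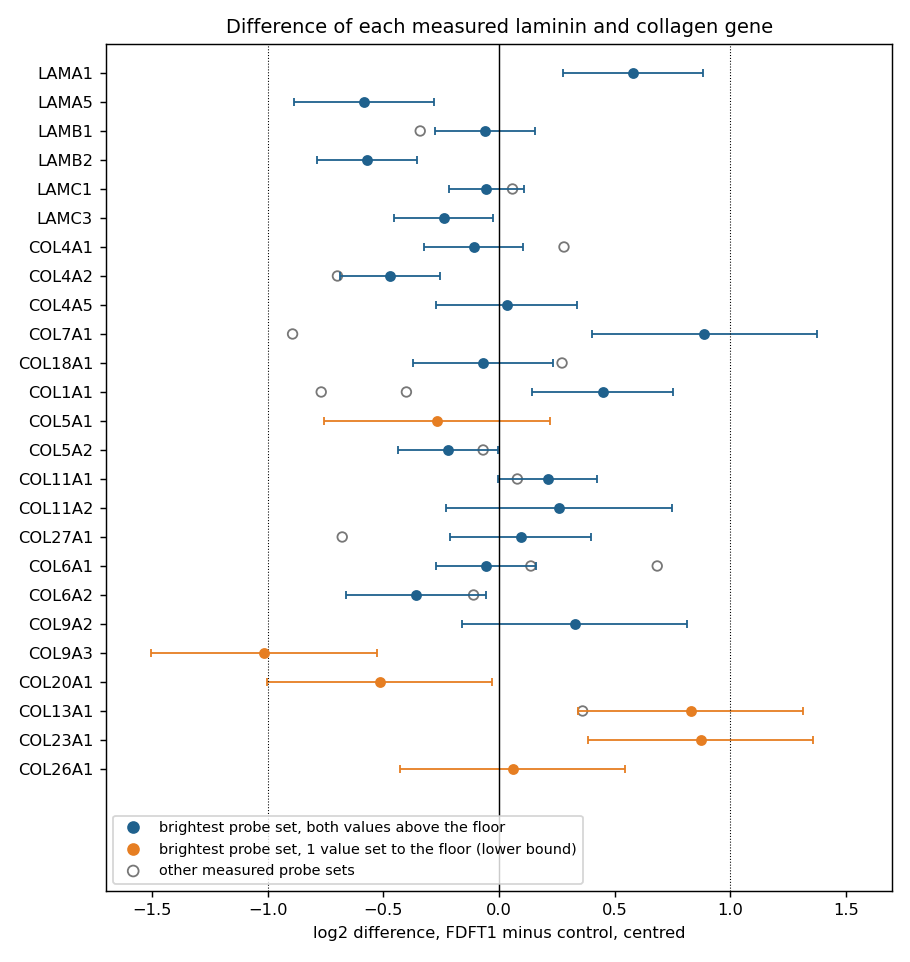
Log2 difference (FDFT1 minus control, centred) of each measured laminin and collagen gene, with filled points for the brightest probe set, bars of 1 probe-set error to each side, and open circles for the gene's other measured probe sets. LAMB2, LAMA5 and COL4A2 are among the genes below 0 by more than 1 error, and LAMA1 and COL7A1 among those above 0 by more than 1 error. Open circles fall on the other side of 0 from the filled point for COL7A1, COL1A1, COL4A1, COL6A1, COL18A1, COL27A1 and LAMC1.

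The laminin genes were the brighter family. Of the 6 measured ones 5 were lower with FDFT1, against 50.2% of all measured genes. LAMB1 and LAMC1, among the 5, differed by less than their errors. By the mean of probe sets 4 of the 6 were lower. The laminin median was -0.15, with an error of 0.12 made from the probe-set errors. Among alpha chains, which carry the globular domains that bind integrins and dystroglycan, LAMA5 had a signal of 88.6 on the FDFT1 array, against 143 on the control array. Its difference was -0.58 with an error of 0.30, or 1.5-fold lower. LAMA5 encodes the most widespread alpha chain of adult epithelial basement membranes. LAMA1, whose chain belongs mainly to embryonic basement membranes, went the other way, with 50.8 on the FDFT1 array and 36.6 on the control array, a difference of 0.58 with an error of 0.30. The second LAMA1 probe set lay under the floor on both arrays. LAMA2, the alpha chain of muscle, and LAMA4, that of vessels, were unmeasured with 4 and 5 probe sets.

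Among beta chains, LAMB2 had the difference that was largest against its error among the 19 chain genes with both values above the floor. Its signal was 133 on the FDFT1 array, against 213 on the control array, a difference of -0.57 with an error of 0.22, or 1.48-fold lower. LAMB2 had 1 probe set, of the kind that can match several transcripts. The related pseudogene LAMB2P1 was near the floor, with 13.9 on the FDFT1 array and 11.7 on the control array. LAMB1, the beta chain that LAMB2 can replace in the trimer, had 317 on the FDFT1 array and 356 on the control array, a difference of -0.06. Its second probe set was also lower, at -0.34 (158 on the FDFT1 array, 216 on the control array). LAMB3 and LAMB4 were unmeasured, with no signal above 9.96.

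The gamma chain LAMC1, which is part of most laminin trimers, had the brightest probe set of the collagen and laminin genes. It gave 831 on the FDFT1 array and 929 on the control array, a difference of -0.06 against an error of 0.16, and its other probe set was at 0.06 (271 on the FDFT1 array, 279.9 on the control array). Both readings of LAMC1 lay within their error of 0. LAMC3, a less widespread gamma chain, had 207 on the FDFT1 array and 264 on the control array, a difference of -0.24 with an error of 0.22. One chain of each class needed for a trimer of LAMA5, LAMB1 or LAMB2, and LAMC1 was therefore measured, and the lower values were in the LAMA5 and LAMB2 probe sets.

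Collagen IV was measured for 3 of its 6 chains. COL4A1 and COL4A2, which assemble into the common trimer of basement membranes, have starts that lie 126 bases apart. COL4A2 was lower on both of its probe sets. The brighter one had 224 on the FDFT1 array, against 334 on the control array, a difference of -0.47 with an error of 0.22 (1.39-fold lower), and the dimmer one was at -0.70 (28.9 on the FDFT1 array, 50.5 on the control array). For COL4A1 the brighter probe set was at -0.11 (402 on the FDFT1 array, 467 on the control array) and the dimmer at 0.28 (66.2 on the FDFT1 array, 58.7 on the control array). The probe sets of COL4A1 thus disagreed in sign, each within its error (0.22 and 0.30), and those of COL4A2 did not. Whether COL4A1 and COL4A2 differed from each other was not tested. The other head-to-head pairs are spaced wider, at 418 bases for COL4A4 and COL4A3 and 379 for COL4A6 and COL4A5. COL4A3 and COL4A4, chains of the kidney and alveolar basement membranes, stayed under the floor on all 10 of their probe sets. COL4A5 had 62.6 on the FDFT1 array and 65.8 on the control array, a difference of 0.03, and COL4A6 was unmeasured.

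Of the other collagens of the basement membrane zone, COL18A1, the source of endostatin, had 76.8 on the FDFT1 array and 86.9 on the control array (-0.07), with its other probe set at 0.27. COL7A1, the anchoring fibril collagen of skin, was at 0.89 with an error of 0.49 (34.8 on the FDFT1 array, 20.3 on the control array). Its second probe set lay at -0.89 or lower, with 3.02 on the FDFT1 array and 23.5 on the control array. The 2 probe sets of COL7A1 therefore give opposite directions at signals where the error is widest. COL15A1 was unmeasured.

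The fibrillar collagens were a mixed group, with 6 of 11 measured, 4 above 0 and 2 below. COL11A1 and COL5A2, chains of the minor fibrillar collagens that set fibre diameter, were the bright members. COL11A1 had 170.4 on the FDFT1 array and 159 on the control array, a difference of 0.21 with an error of 0.22, and its other measured probe set was at 0.08. COL5A2 had 126 on the FDFT1 array and 158 on the control array, a difference of -0.22, and its other probe set was at -0.07. COL11A1 stayed within its error, and COL5A2 was at the size of its error. COL1A1, the main chain of bone and skin collagen, was at 0.45 on its brightest probe set (83.0 on the FDFT1 array, 65.5 on the control array) but at -0.40 and -0.77 on the next ones, and 2 more were under the floor. The brightest of these can match related sequences. COL1A2 and COL3A1, with which COL1A1 is usually co-expressed in fibroblasts, were unmeasured on all 3 and all 5 of their probe sets, at no more than 5.86 and 9.84. COL27A1 was at 0.09, COL11A2 at 0.26 and COL5A1 at -0.27, where the FDFT1 value was under the floor.

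Collagen VI was represented by COL6A1 and COL6A2, whose chains combine with that of COL6A3 in the classical trimer. COL6A1 had 137 on the FDFT1 array and 153 on the control array, a difference of -0.06 with an error of 0.22. Its other measured probe sets lay at 0.14 and 0.68, the last against a control value under the floor. COL6A2 was at -0.36 with an error of 0.30 (41.6 on the FDFT1 array, 57.3 on the control array), and its other probe set was at -0.11. COL6A3 had 1.64 on the FDFT1 array and 6.44 on the control array, so no signal for the third chain was measured on its 1 probe set.

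The remaining collagens were dim. COL9A3, a cartilage chain, was the gene past 2-fold, at least 2.02-fold lower (3.56 on the FDFT1 array, 25.6 on the control array; difference -1.02, error 0.49), on its 1 probe set. COL9A2, its partner in collagen IX, was at 0.33 (16.2 on the FDFT1 array, 13.9 on the control array) and COL9A1 was unmeasured. Among the transmembrane collagens, COL23A1 was at 0.87 or more (21.5 on the FDFT1 array, 11.3 on the control array). COL13A1 was at 0.83 or more (20.8 on the FDFT1 array, 2.86 on the control array). COL23A1 and COL13A1 passed the floor through the FDFT1 array alone, so a higher value with FDFT1 came with that choice. COL25A1, the other member, was unmeasured, with at most 2.82 on the FDFT1 array and 8.48 on the control array. COL20A1 was at -0.52 or lower and COL26A1 at 0.06 or more. COL9A3 and COL20A1 passed the floor through the control array alone, and COL26A1 through the FDFT1 array alone, so their directions also came with the floor. All 7 unmeasured fibril-associated genes, COL12A1 and COL14A1 among them, had signals of at most 9.09. Of the antisense genes and the pseudogene, LAMA4-AS1 was at -0.44 or lower, LAMB2P1 at 0.24 or more, and LAMA5-AS1 was unmeasured.

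Among the bright chain genes, LAMA5 passed the 75th percentile through the control array alone, so a lower value with FDFT1 came with that choice. Of the 9 past it on both arrays, 8 were lower with FDFT1, with a median of -0.11, and 4 of the 9 exceeded 1 probe-set error. Over all 7691 genes past it on both arrays, 50.6% lay below 0, the median was -0.0026 and 32.99% exceeded 1 error. This subset was formed after the values had been seen, and its counts are a description of these arrays. The second probe sets of COL4A1, COL6A1 and LAMC1 lay on the other side of 0 from the brightest. By the mean of measured probe sets, 6 of the 10 bright chain genes lay below 0, against 9 of 10 by the brightest probe set. Without probe sets of the kinds that can match several transcripts or related sequences, 5 of 7 did.

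**Figure D3:**
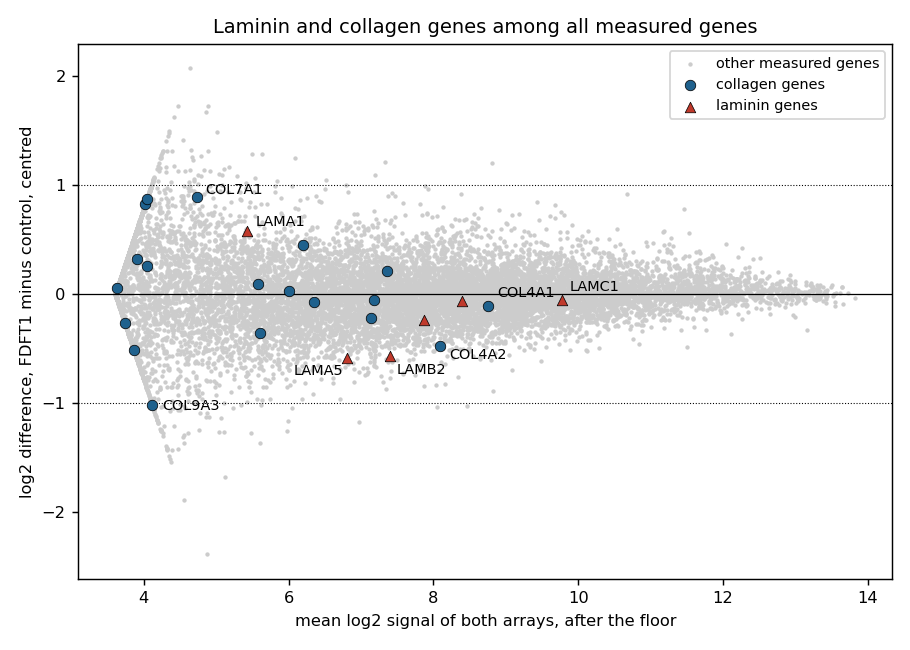
Log2 difference (FDFT1 minus control, centred) against mean log2 signal for all measured genes in grey, with collagen genes as blue circles and laminin genes as red triangles; dotted lines mark 2-fold. COL9A3 is the point past a dotted line, and the oblique edges at the left are values set against the floor.

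Probe sets of the same gene gave an uneven picture of direction. Of 13 chain genes read by 2 or more measured probe sets, 6 (46.2%) had the same sign on the brightest pair, against 55.1% of all 6535 genes read that way. The 6 were COL4A2, COL5A2, COL6A2, LAMB1, COL11A1 and COL13A1. In COL4A1, COL1A1, COL6A1, COL7A1, COL18A1, COL27A1 and LAMC1 they opposed each other. LAMA5, LAMB2 and LAMC3 had a single usable probe set each, so their lower values have no second reading. Those probe sets, and that of COL9A3, are of the kind that can match several transcripts. The measured probe sets of COL13A1 can match related sequences, and they passed the floor through the FDFT1 array alone. A further probe set listed for both LAMA5 and LAMA5-AS1 was not used.

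Collagen chains need modifying enzymes and chaperones before they are secreted, and 27 of 34 such genes were measured, 12 above 0 and 15 below, with a median of -0.03. None was 2-fold different with values held at the floor. Of the 34, 21 (61.8%) were past the 75th percentile, against 40.8% of all genes, among them PPIB, a prolyl isomerase (5322 on the FDFT1 array, 5118 on the control array; 0.16), and P4HB, the beta subunit of prolyl hydroxylase (2713 on the FDFT1 array, 3117 on the control array; -0.09). The largest value above 0 was that of SEC24D, a coat protein for procollagen export, at 0.61 with an error of 0.22. SEC24D had 163 on the FDFT1 array and 115 on the control array. Next were P4HA3, a prolyl hydroxylase subunit, at 0.58 or more, and BMP1, the procollagen C-proteinase, at 0.53. Of the 3 measured BMP1 probe sets 1 was lower. The probe sets of PPIB and of P4HB also disagreed in sign. The lowest were ADAMTS2, an N-proteinase of procollagen, at -0.69 or lower, P3H3 at -0.64 and PCOLCE, which enhances the C-proteinase, at -0.34. SERPINH1, the collagen chaperone of the endoplasmic reticulum, was at -0.21 with an error of 0.097 (1883 on the FDFT1 array, 2340 on the control array), and COLGALT1, which puts galactose on hydroxylysine, at -0.32 with an error of 0.16 and both probe sets lower. SERPINH1 and COLGALT1 were picked for mention with their values in view. Of the lysyl oxidases, which cross-link collagen, LOXL3 was at 0.19 (32.6 on the FDFT1 array, 30.7 on the control array) and LOXL2 at the floor (11.98 on the FDFT1 array, 0.829 on the control array), and LOX, LOXL1 and LOXL4 were unmeasured.

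Other matrix proteins and adhesion proteins had 18 of 28 genes measured, 10 above 0 and 8 below, with a median of 0.07. NID1, the nidogen that joins laminin to collagen IV, was at 0.17 (302 on the FDFT1 array, 289 on the control array). The 2 probe sets of NID1 disagreed in sign. HSPG2, the perlecan gene, and SPARC were unmeasured. THBS1, thrombospondin, was the brightest at 0.27 (960 on the FDFT1 array, 855 on the control array; error 0.16), with 5 of 5 probe sets higher. ELN, elastin, was the gene at least 2-fold lower, at -1.05 with an error of 0.49 (11.8 on the FDFT1 array, 26.2 on the control array). This is 1 gene of 18, against 0.578% of all measured genes. ELN was read on 1 measured probe set, whose FDFT1 value cleared the floor only after centring. FBLN1, a fibulin of basement membranes, was at -0.62 with an error of 0.22 (108 on the FDFT1 array, 179 on the control array) and 3 of 3 probe sets lower, and FMOD, a small collagen-binding proteoglycan, was at -0.67. TINAGL1 at 0.76, FRAS1 at 0.39 and FBN1 at 0.35 had the largest values above 0, each a lower bound against a control value under the floor.

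Of 17 receptor genes 11 were measured, 7 above 0 and 4 below, with a median of 0.12. ITGB1, the beta subunit of the collagen-binding integrins and of most laminin-binding ones, was bright on both arrays (6327 on the FDFT1 array, 6564 on the control array; 0.05). The collagen-binding alpha subunits ITGA1, ITGA2, ITGA10 and ITGA11 were all unmeasured. ITGA6, a laminin-binding alpha subunit, was at 0.12 (121 on the FDFT1 array, 119 on the control array). ITGA3, another, was at 0.91 or more against a control value under the floor after centring. The probe sets of ITGB1 and of ITGA6 disagreed in sign. DDR2, a receptor kinase for fibrillar collagen, was at least 2-fold higher on 1 probe set, at 1.16 with an error of 0.49. Its signals were 26.99 on the FDFT1 array and 13.03 on the control array, near the floor. This is 1 gene of 11, against 0.571% of all measured genes. BCAM, a receptor for the chain that LAMA5 encodes, was at 0.73 or more (19.5 on the FDFT1 array, 5.95 on the control array). SDC1, a heparan sulphate proteoglycan of epithelia, was the lowest at -0.62 with an error of 0.22 (214 on the FDFT1 array, 355 on the control array) and both probe sets lower. ITGA7 was at -0.35 and MRC2, an endocytic collagen receptor, at -0.10.

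**Figure D4:**
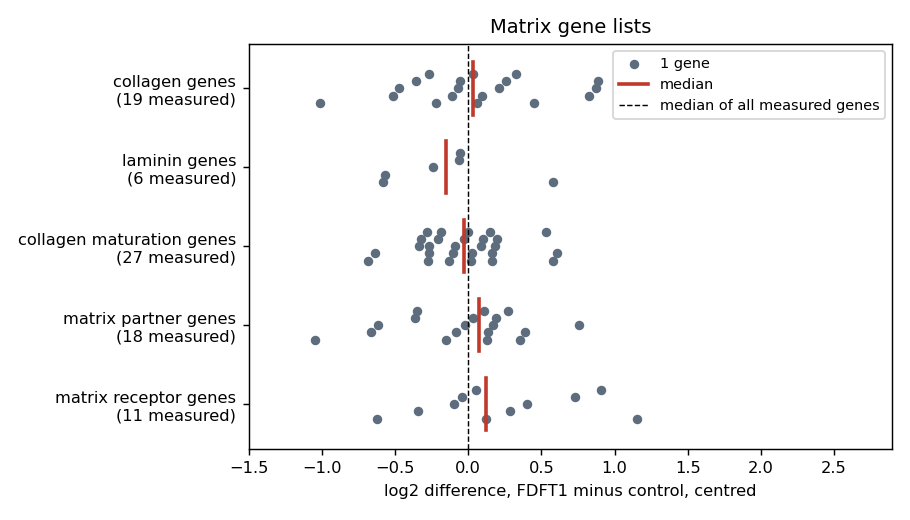
Log2 difference (FDFT1 minus control, centred) of every measured gene of the collagen, laminin, collagen maturation, matrix partner and matrix receptor lists, with 1 point per gene, the list's median as a red bar and the median of all measured genes as a dashed line. The laminin median of -0.15 (error 0.12) was the lowest and the receptor median of 0.12 (error 0.15) the highest, with wide overlap of the points. Apart from that of the laminins, each list's median was smaller in size than its error.

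Position and promoter composition were set beside the differences. The 10 nearest measured genes to each side of a chain gene had medians from -0.16 around LAMC3 to 0.19 around COL5A2. COL4A2 was at -0.47 where its neighbours had a median of 0.14, and LAMB2 at -0.57 where its neighbours had -0.06, with 14 of 20 below 0. Across the 25 chain genes the Spearman rho between a gene and its neighbours' median was 0.12, against 0.19 over 12953 genes. Promoter sequence was matched for 18 of the 25 measured chain genes and 21 of the 28 unmeasured ones. CpG-rich windows (at least 50% G and C and an observed to expected CpG ratio of at least 0.6) were found for 14 of the 18 (77.8%), against 8 of the 21 (38.1%). Over all genes the shares were 79.3% of the measured and 32.3% of the unmeasured, so these shares are near the background. Across those 18 genes promoter G and C content and the log2 difference had a rho of -0.48, against -0.06 over 10512 measured genes. All these points come from the same 2 arrays, and the part of position or composition in any difference was not tested.

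The labelled cell type was checked by its markers. Of 9 alveolar type II markers with a probe set, 7 were measured, but SFTPC (16.9 on the FDFT1 array, 29.3 on the control array), SFTPB (35.3 on the FDFT1 array, 32.0 on the control array) and NKX2-1 (29.3 on the FDFT1 array, 31.1 on the control array) were dim, and SFTPD was under the floor. The other measured markers were LPCAT1 (787 on the FDFT1 array, 934 on the control array), ETV5 (281 on the FDFT1 array, 383 on the control array), ABCA3 (55.6 on the FDFT1 array, 79.9 on the control array) and LAMP3 (58.8 on the FDFT1 array, 53.004 on the control array). LPCAT1 and ETV5 were thus past the 75th percentile, whereas the surfactant genes measured here do not bear out the label. SFTPA1 and SFTPA2 were not analysed here. CDH1 and KRT19 were unmeasured among 6 epithelial markers, and the other 4 had signals of at most 20.1. Markers of matrix-producing stroma were mostly under the floor: 2 of 7 fibroblast markers (ACTA2 and DCN), 1 of 5 endothelial (PECAM1) and 1 of 3 smooth muscle markers (MYH11) were measured, at signals of at most 24.6. LUM, PDGFRA, FAP and CDH5 lay under the floor on both arrays, as did COL1A2 and COL3A1. Of 4 blood and immune markers with a probe set 3 were measured, at no more than 18.3. The measured chain genes COL26A1, COL5A1, COL9A2, COL11A2 and COL20A1 had no higher signals than that. The expression of FDFT1 itself was not analysed here.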

How the data were processed

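RNA of 2 samples of the CL1-0 line was measured on 1 array each. The authors deposited linear MAS5 intensities, with 1 value for each probe set of an array (MAS5 per the submitters' processing notes). The version, the scaling target and any detection calls were not given there. Groups came from the sample titles. With 1 array per group the number of arrays limits the precision, and no p-value was computed.

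From 54675 probe sets, 62 control probe sets were set aside. Log2 signals were centred on the median difference over probe sets at or above the floor in both arrays, with the shift shared equally by the arrays, then the floor was applied. Genes were named from the platform annotation, which gave 1 gene for 41091 probe sets, several for 1801 and none for 11721; only the first were used. All 56 members matched the GRCh38.p14 gene table by Entrez identifier with the same symbol. The signal range of the probe-set error was the mean log2 signal after the floor.

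The members and lists were chosen with earlier results of these data known, so they give no independent support. Named genes were, by rule, every measured chain gene, and of each other list the 3 with the largest difference each way and the 2 brightest; others are named as examples. Computation used pandas 2.3.3 and numpy 2.4.6 under Python 3.11.15, with loess from statsmodels 0.14.6, rank correlations from scipy 1.17.1 and plots from matplotlib 3.10.9, and the steps were tested on simulated data. Alternatives in scaling and floor were values as deposited, quantile and loess scaling, no floor beyond a minimal signal, and a floor at the 75th percentile. Others were the mean of probe sets, probe sets without the suffixes _x_at or _s_at, and thresholds of 1.5-fold and 3-fold.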

Additional observations from a re-analysis of the deposited data

How the results depend on the processing

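Whether a result moved was judged for counts by a factor of 1.5 and for medians by an error made from the probe-set errors. With a floor, no chain gene was at least 2-fold higher under any scaling, the mean of probe sets, the higher floor or without _x_at and _s_at probe sets. The setting called without a floor still raised centred signals below 1 to 1. Under it 7 of all 53 chain genes were higher and 4 lower, against 10.4% and 8.47% of all genes. Of the 7, COL13A1 (2.97) and COL23A1 (1.03) were among the 25 measured genes, as was COL9A3 (-2.74) of the 4. At 1.5-fold 3 were higher. The 1 gene at least 2-fold lower, COL9A3, became 0 at 3-fold, at the floor of the 75th percentile and without _x_at and _s_at probe sets, the last 2 because it was no longer measured. The laminin median stayed below 0 throughout, from -0.06 on the 3 genes without _x_at and _s_at probe sets to -0.26 as deposited, where all genes had a median of -0.11. The collagen median was -0.11 on the 5 genes that reached the 75th percentile. The maturation median was -0.17 as deposited, again with all genes shifted. The receptor median was 0.28 without a floor, -0.038 at the higher floor (5 genes) and -0.062 without _x_at and _s_at probe sets (8 genes); more genes entered without a floor (17) and fewer under the other settings than the 11 measured. Centring decided the sign of 2 dim chain genes, COL27A1 and COL4A5, which were below 0 as deposited. With the mean of probe sets 7 of 27 measured genes changed sign. LAMB2 ranged from -0.68 to -0.55, LAMA5 from -0.69 to -0.47 and COL4A2 from -0.59 to -0.45 over the alternatives that measured them. LAMB2 and LAMA5 had 1 probe set each, so their ranges only rescale the same reading and do not test it. No paired analysis was possible because each group has 1 array.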
